A study of Mus musculus with 2 samples.

Results

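The cytochrome P450 (Cyp) and aldehyde dehydrogenase (Aldh) genes were compared between heart tissue of a probucol-treated sample and of an untreated sample. Members were all gene symbols that begin with Cyp, a family number and a letter, or with Aldh and a family number, Cyp51 being left out. The rule took 125 of the 24346 genes listed, 104 P450 genes and 21 aldehyde dehydrogenase genes. The P450 symbols include 5 that are annotated as pseudogenes or as an antisense transcript, 1 of them measured. Of the 125, 35 had a mean of at least 0.5 FPKM (a level per transcript length and sequencing depth) over the libraries and are called measured, 19 of them P450 genes and 16 aldehyde dehydrogenase genes.

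Mouse heart tissue, stored in an RNA preservative and frozen, came from mice that had received a high-fat diet and an infarction (labelled HFD-MI). The probucol group and the untreated group each hold 1 library, and both carry the age label day 14, which does not name the event the days were counted from. Probucol is an antioxidant drug that lowers cholesterol. The sources used here do not give the genotype, the strain, the part of the heart taken or whether animals were pooled. A single library per group allows no test, so every difference describes these libraries and has no replicate check.

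P450 enzymes are haem proteins that insert oxygen into their substrates, using electrons passed on by a reductase. Some clear drugs, mainly in the liver, while others act on fatty acids, sterols, vitamins and retinoic acid within tissues. Aldehyde dehydrogenases oxidise aldehydes to acids. They remove products of lipid peroxidation and alcohol, complete steps of amino acid breakdown, and make retinoic acid, a signal that the developing and injured heart uses. In the heart Aldh2 is best known for the removal of toxic aldehydes after ischaemia.

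Promoters were taken from RefSeq (build GRCm38.p6), as 250 bases before to 50 after each annotated start, and 25 of the 35 measured members matched, with 27 promoters. The sequences of 6 members are shown because the results turn on them. With the pseudocount of 0.5 used below, Aldh1a2 had the lowest ratio of the measured members and Cyp26b1 the highest, while with one of 0.1 the pseudogene Cyp4b1-ps2 (log2 0.98) lay above Cyp26b1 (0.96). Aldh4a1 and Aldh6a1 were the most abundant of those at least 1.5-fold higher, and Cyp4f18 and Cyp4v3 were the lower P450 genes. The promoter of Aldh1a2 lies at chr9:71215539-71215838 (plus strand), of Cyp26b1 at chr6:84593761-84594060 (minus) and of Aldh4a1 at chr4:139622644-139622943 (plus). Aldh6a1 has more than 1 annotated promoter, and the one printed lies at chr12:84450975-84451274 (minus). Those of Cyp4f18 and Cyp4v3 lie at chr8:72009577-72009876 (minus) and chr8:45333114-45333413 (minus). Each is written 5′ to 3′ on the gene's strand, and capitals mark a match, on either strand, to one of 5 searched motifs.
Aldh1a2: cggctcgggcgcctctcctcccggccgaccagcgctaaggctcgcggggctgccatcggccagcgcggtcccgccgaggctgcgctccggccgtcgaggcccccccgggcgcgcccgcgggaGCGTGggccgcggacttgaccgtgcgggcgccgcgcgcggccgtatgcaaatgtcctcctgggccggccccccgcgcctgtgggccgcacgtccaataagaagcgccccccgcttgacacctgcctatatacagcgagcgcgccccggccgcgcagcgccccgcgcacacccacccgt
Cyp26b1: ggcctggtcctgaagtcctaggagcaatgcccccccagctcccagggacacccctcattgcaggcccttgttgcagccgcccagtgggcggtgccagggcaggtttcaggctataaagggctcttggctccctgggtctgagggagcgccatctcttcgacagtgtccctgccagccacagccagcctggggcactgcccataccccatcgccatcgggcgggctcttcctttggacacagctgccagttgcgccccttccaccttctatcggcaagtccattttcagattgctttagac
Aldh4a1: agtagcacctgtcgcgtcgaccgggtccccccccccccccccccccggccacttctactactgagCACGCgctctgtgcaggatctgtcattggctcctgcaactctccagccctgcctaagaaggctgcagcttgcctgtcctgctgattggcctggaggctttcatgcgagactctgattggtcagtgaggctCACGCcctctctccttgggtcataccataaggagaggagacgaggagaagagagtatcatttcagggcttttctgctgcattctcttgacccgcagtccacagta
Aldh6a1: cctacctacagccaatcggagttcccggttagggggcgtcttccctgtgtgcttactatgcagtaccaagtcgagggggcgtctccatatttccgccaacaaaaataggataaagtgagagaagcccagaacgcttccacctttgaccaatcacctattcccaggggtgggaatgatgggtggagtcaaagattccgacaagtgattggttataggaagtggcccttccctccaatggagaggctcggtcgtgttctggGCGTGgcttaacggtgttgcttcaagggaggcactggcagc
Cyp4f18: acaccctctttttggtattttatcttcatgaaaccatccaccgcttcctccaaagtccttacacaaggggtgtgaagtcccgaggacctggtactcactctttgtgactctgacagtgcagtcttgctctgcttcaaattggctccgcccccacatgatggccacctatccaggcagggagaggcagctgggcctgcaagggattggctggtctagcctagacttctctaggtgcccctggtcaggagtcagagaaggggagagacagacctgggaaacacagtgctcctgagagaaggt
Cyp4v3: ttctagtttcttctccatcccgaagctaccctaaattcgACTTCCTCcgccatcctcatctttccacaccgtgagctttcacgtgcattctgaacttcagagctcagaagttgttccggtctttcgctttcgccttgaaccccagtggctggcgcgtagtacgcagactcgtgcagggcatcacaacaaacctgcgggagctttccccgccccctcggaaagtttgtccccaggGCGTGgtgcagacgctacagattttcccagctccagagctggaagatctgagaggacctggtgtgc

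The motifs searched on both strands were GCGTG, the core bound by the aryl hydrocarbon receptor, AGGTCA, a hexamer of nuclear receptors, and TCAAGGTCA, a site of estrogen-related receptors that contains this hexamer. Sites of AP-1 (TGACTCA) and of PU.1 (GAGGAAGT) were searched too. The Aldh1a2 promoter has GCGTG 128 bases before the start and holds 50 CpG dinucleotides at 78% G+C, where the median promoter has 7 CpG. Aldh4a1 has GCGTG on the opposite strand 185 and 55 bases before its start. In the printed promoter of Aldh6a1 GCGTG lies just after the annotated start, within the last 50 bases of the window. The other Aldh6a1 promoter (chr12:84448268-84448567, not printed) holds no GCGTG but has AGGTCA 94 bases before its start. Cyp4v3 has GCGTG 16 bases before the start and GAGGAAGT on the opposite strand 211 bases before it. The windows of Cyp26b1 and Cyp4f18 hold none of the motifs. GCGTG was found in 12 of the 27 member promoters (44.4%), against 32.4% of 32851 promoters of the same length. The nuclear receptor hexamer was found in 3 (11.1%, against 16.3% of all), the AP-1 site in 2 (7.41%, against 5.20%), the PU.1 site in 2 (7.41%, against 3.20%) and the estrogen-related receptor site in 0 (against 0.423%). These matches describe letters in a window and do not show binding.

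Differences are given as log2((FPKM probucol + 0.5)/(FPKM untreated + 0.5)), and folds are on the same scale, on which low genes differ by less than their FPKM do. Of the 12882 genes that passed the filter, 12.0% were at least 1.5-fold lower with probucol and 5.52% at least 1.5-fold higher, with a median log2 ratio of 0.01. Ratios lay above 0 in 6563 of these genes and below 0 in 6319. Of the 35 measured members, 7 were at least 1.5-fold lower, 7 at least 1.5-fold higher and 21 differed by less. Among aldehyde dehydrogenase genes 5 of 16 (31.2%) were lower and 4 (25%) higher, with a median of 0.16. Among P450 genes 2 of 19 (10.5%) were lower and 3 (15.8%) higher, with a median of -0.15. That median was 0.052 with a mean filter of 1 FPKM and 0.15 with one of 0.1 FPKM, and only 1 P450 gene was higher with a pseudocount of 1 or after rescaling to equal FPKM totals. With the settings used here, the share of lower P450 genes was near that of all genes, and the other shares were above it.

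Depth was similar in both libraries: by the steps between low values, a level of 1 FPKM at an effective length of 1 kb meant 6.70 fragments with probucol and 7.47 fragments untreated. Genes with at least 0.5 FPKM numbered 12657 with probucol and 12941 untreated. All 7 cardiomyocyte markers had ratios above 0 (log2 0.24 to 0.59, summed level 54197 FPKM with probucol and 39711 FPKM untreated). The 7 macrophage markers each lay at least 1.5-fold lower with probucol (-2.35 to -0.72, summed 720 FPKM against 2506 FPKM untreated), as did 5 of 7 fibroblast markers (all 7 from -1.18 to -0.47, summed 787 FPKM against 1256 FPKM untreated), and none of either list was listed at 0. In whole tissue, fewer cells of a type and less RNA per cell cannot be told apart, and the part of these shifts in the members' differences was not tested.

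**Figure D1:**
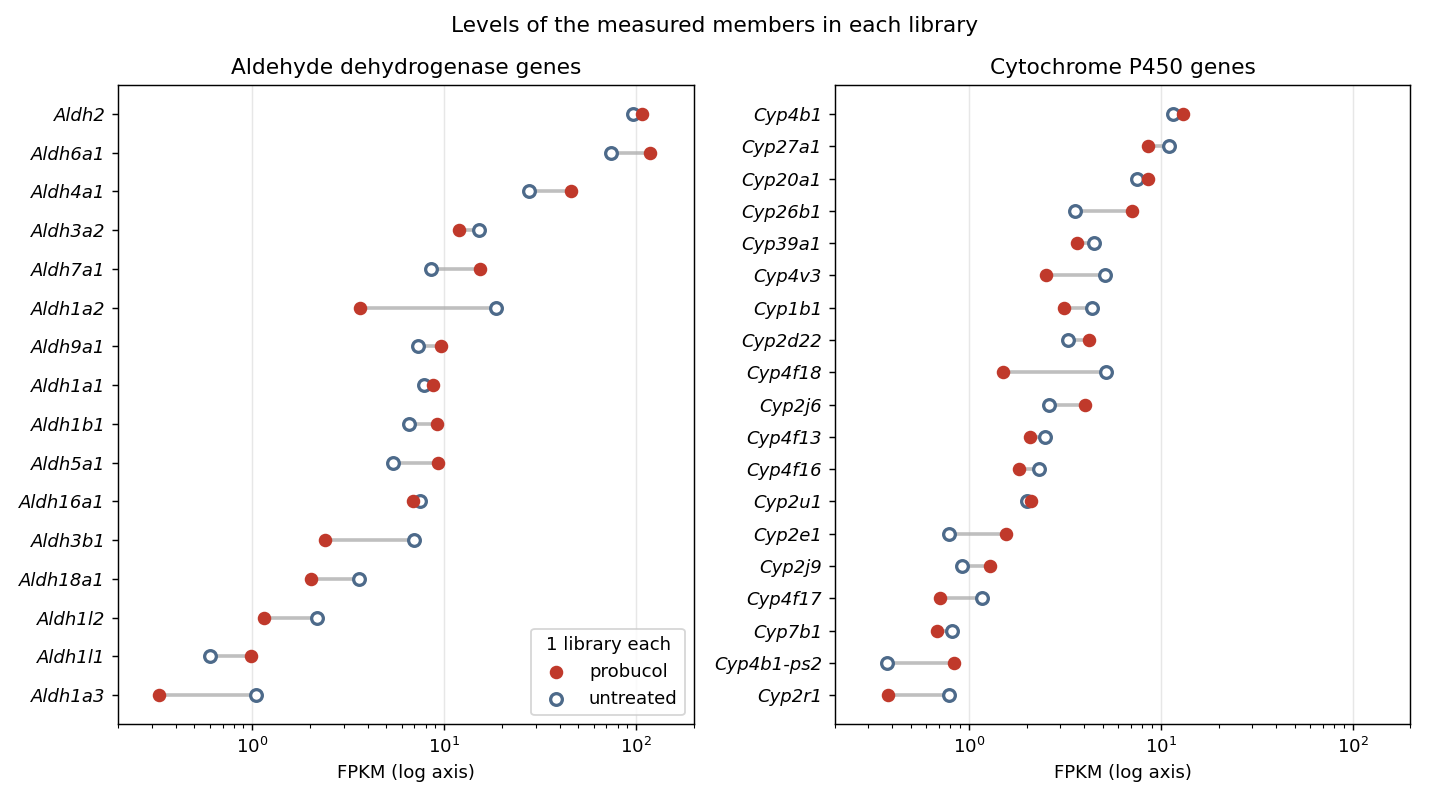
FPKM (log axis) of the 35 measured members, aldehyde dehydrogenase genes on the left and P450 genes on the right, 1 point per library, filled for probucol and open for untreated. Aldh2 and Aldh6a1 lie highest in both libraries, and Aldh1a2 shows the widest gap, 3.63 FPKM with probucol against 18.6 FPKM untreated.

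Of the enzymes that make retinoic acid, Aldh1a2 and Aldh1a3 were lower with probucol, while Cyp26b1, which removes it, was higher. Aldh1a2, the main retinaldehyde dehydrogenase of the embryonic heart and epicardium, stood at 3.63 FPKM with probucol and 18.6 FPKM untreated. It was 4.63-fold lower with probucol (log2 -2.21), at the 0.396 percentile of all measured genes, and ranked 18 among the measured members with probucol against 4 untreated. The gene lies at chr9:71215789-71296243, and its estimated fragments were 50 with probucol and 286 untreated. The exact binomial 95% interval of the FPKM ratio was 0.141 to 0.264. Such intervals cover counting error only and are no test of the treatment.

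Aldh1a3, a second retinaldehyde dehydrogenase, was near the detection filter, with 0.328 FPKM with probucol and 1.049 FPKM untreated (log2 -0.90, 7 and 25 fragments, interval 0.114 to 0.743). Aldh1a1, which acts on retinaldehyde and on lipid aldehydes, was by contrast similar, with 8.76 FPKM with probucol and 7.85 FPKM untreated (0.15). Aldh1a7 was listed at 0 in both. The most abundant retinaldehyde dehydrogenase was therefore Aldh1a1 with probucol and Aldh1a2 untreated: the FPKM ratio of Aldh1a2 to Aldh1a1 was 0.415 with probucol and 2.37 untreated. Summed over the family, levels were 12.7 FPKM with probucol and 27.5 FPKM untreated.

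Cyp26b1, which oxidises retinoic acid and so ends its action, stood at 7.05 FPKM with probucol and 3.58 FPKM untreated. It was 1.85-fold higher with probucol (log2 0.89), with 186 fragments against 106 untreated and an interval of 1.53 to 2.51. The gene lies at chr6:84571414-84593908. Its relatives gave almost no signal: Cyp26a1 was listed at 0 in both, and Cyp26c1 at 0 with probucol and 0.0993 FPKM untreated. The FPKM ratio of Aldh1a2 to Cyp26b1 was 0.515 with probucol and 5.21 untreated.

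Of 15 measured partners in retinoid supply and reception, 3 (20%) passed the 1.5-fold limit as lower and 1 (6.67%) as higher. The shares of all genes were 12.0% and 5.52%, and the median log2 ratio of the list was 0.07. Dhrs9, a retinol dehydrogenase, had 0.286 FPKM with probucol and 2.104 FPKM untreated (log2 -1.73). Crabp2, which carries retinoic acid to the nucleus, had 0.432 FPKM with probucol and 2.13 FPKM untreated (-1.50), on 2 and 11 fragments only. Both were lower with probucol. Among the receptors, Rara was lower, at 2.66 FPKM against 4.89 FPKM untreated (-0.77), and Rxrg was higher, at 54.8 FPKM against 35.4 FPKM untreated (0.62). The relatives of Rara had ratios above 0 within the limit. Rarb had 9.29 FPKM with probucol and 6.38 FPKM untreated (0.51, interval 1.16 to 1.83), and Rarg had 9.34 FPKM and 8.19 FPKM (0.18). Rdh10, which makes retinaldehyde from retinol, and Dhrs3, which reverses that step, had ratios of -0.33 and 0.04.

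Because the epicardium and mesothelium express Aldh1a2, their markers are given beside it. Only 2 of 7 were measured. Wt1 had 2.80 FPKM with probucol and 3.85 FPKM untreated (log2 -0.40), and Krt19 had 0.384 FPKM with probucol and 1.15 FPKM untreated (-0.90). Under the filter, Krt8 had 0.0935 FPKM with probucol and 0.671 FPKM untreated (1 and 9 fragments, interval 0.00283 to 0.894), and Lrrn4 was listed at 0 with probucol and 0.082 FPKM untreated. Upk3b had 0.0817 FPKM with probucol and 0.0733 FPKM untreated, Msln had 0.0783 FPKM and 0, and Upk1b was listed at 0 in both. Summed, the list had 3.43 FPKM with probucol and 5.83 FPKM untreated, and its part in the Aldh1a2 difference was not tested.

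Aldehyde dehydrogenase genes of amino acid and amine metabolism were mostly higher with probucol. Of 6 measured members 4 passed the limit as higher, with a median log2 ratio of 0.70. The 1 that passed as lower, Aldh18a1, acts in proline synthesis rather than in breakdown. Of all genes, 5.52% were higher and 12.0% lower at this limit. The summed level of the 6 members was 201 FPKM with probucol and 126 FPKM untreated. Aldh6a1, the methylmalonate semialdehyde dehydrogenase of valine and thymine breakdown, had 119 FPKM with probucol and 74.0 FPKM untreated. It was 1.60-fold higher with probucol (0.68, 2534 and 1764 fragments, interval 1.51 to 1.70) and lies at chr12:84430717-84451004. After rescaling to equal FPKM totals its log2 ratio was 0.53, under the limit, and the other 3 higher members stayed past it. Its gap was enough to swap the highest members: the FPKM ratio of Aldh6a1 to Aldh2 was 1.10 with probucol and 0.772 untreated.

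Aldh4a1 completes the breakdown of proline to glutamate. It had 45.9 FPKM with probucol and 27.5 FPKM untreated, 1.66-fold higher with probucol (log2 0.73, 976 and 652 fragments, interval 1.51 to 1.85), and lies at chr4:139622866-139649690. A same-strand gene model that overlaps it, whose level was not analysed here, shares 30.0% of the 50-base windows of its transcripts, so its level is uncertain to that extent. Aldh18a1, which runs the opposite way and starts proline synthesis from glutamate, had 2.03 FPKM with probucol and 3.60 FPKM untreated. It was 1.62-fold lower with probucol (-0.70, 44 and 86 fragments, interval 0.388 to 0.830). The FPKM ratio of Aldh4a1 to Aldh18a1 was 22.6 with probucol and 7.64 untreated. Prodh, which catalyses the step before Aldh4a1, showed no such gap, with 15.6 FPKM with probucol and 14.5 FPKM untreated (0.11). Of the 7 measured proline and glutamate partners 1 (14.3%) passed the limit as higher and 0 as lower. The shares of all genes were 5.52% and 12.0%. That gene was Got2, a mitochondrial aspartate aminotransferase (500 FPKM with probucol, 332 FPKM untreated, 0.59).

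Aldh7a1, the dehydrogenase of lysine breakdown, had 15.3 FPKM with probucol and 8.57 FPKM untreated (log2 0.80, 1.74-fold higher with probucol). Aldh5a1, which oxidises succinate semialdehyde from the transmitter GABA, had 9.28 FPKM with probucol and 5.39 FPKM untreated (0.73, 338 and 219 fragments, interval 1.45 to 2.05). Aldh9a1, used in carnitine synthesis, had 9.67 FPKM with probucol and 7.29 FPKM untreated (0.38). Its interval of 1.06 to 1.67 lay above 1 although the gene stayed under the limit. Of the partners of Aldh7a1 and Aldh5a1, Gcdh, a later enzyme of lysine breakdown, had 52.1 FPKM with probucol and 34.2 FPKM untreated (0.60), whereas Abat, which makes succinate semialdehyde, had 3.09 FPKM and 3.21 FPKM (-0.05).

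The enzymes of valine breakdown that act with Aldh6a1 lay on the same side. All 10 had ratios above 0, 6 of them (60%) past the 1.5-fold limit, and the median log2 ratio was 0.63. Of all 12882 measured genes, 6563 had ratios above 0 and 5.52% were past that limit as higher. The largest were those of Bckdhb (65.5 FPKM with probucol, 38.6 FPKM untreated, 0.76) and Bckdha (205 FPKM with probucol, 123 FPKM untreated, 0.73), subunits of the branched-chain keto acid dehydrogenase. Hibadh, which forms the substrate of Aldh6a1, had 281 FPKM with probucol and 172 FPKM untreated (0.71). The cardiomyocyte markers given above, with a median of 0.32, lay on this side too, and their part in it was not tested.

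**Figure D2:**
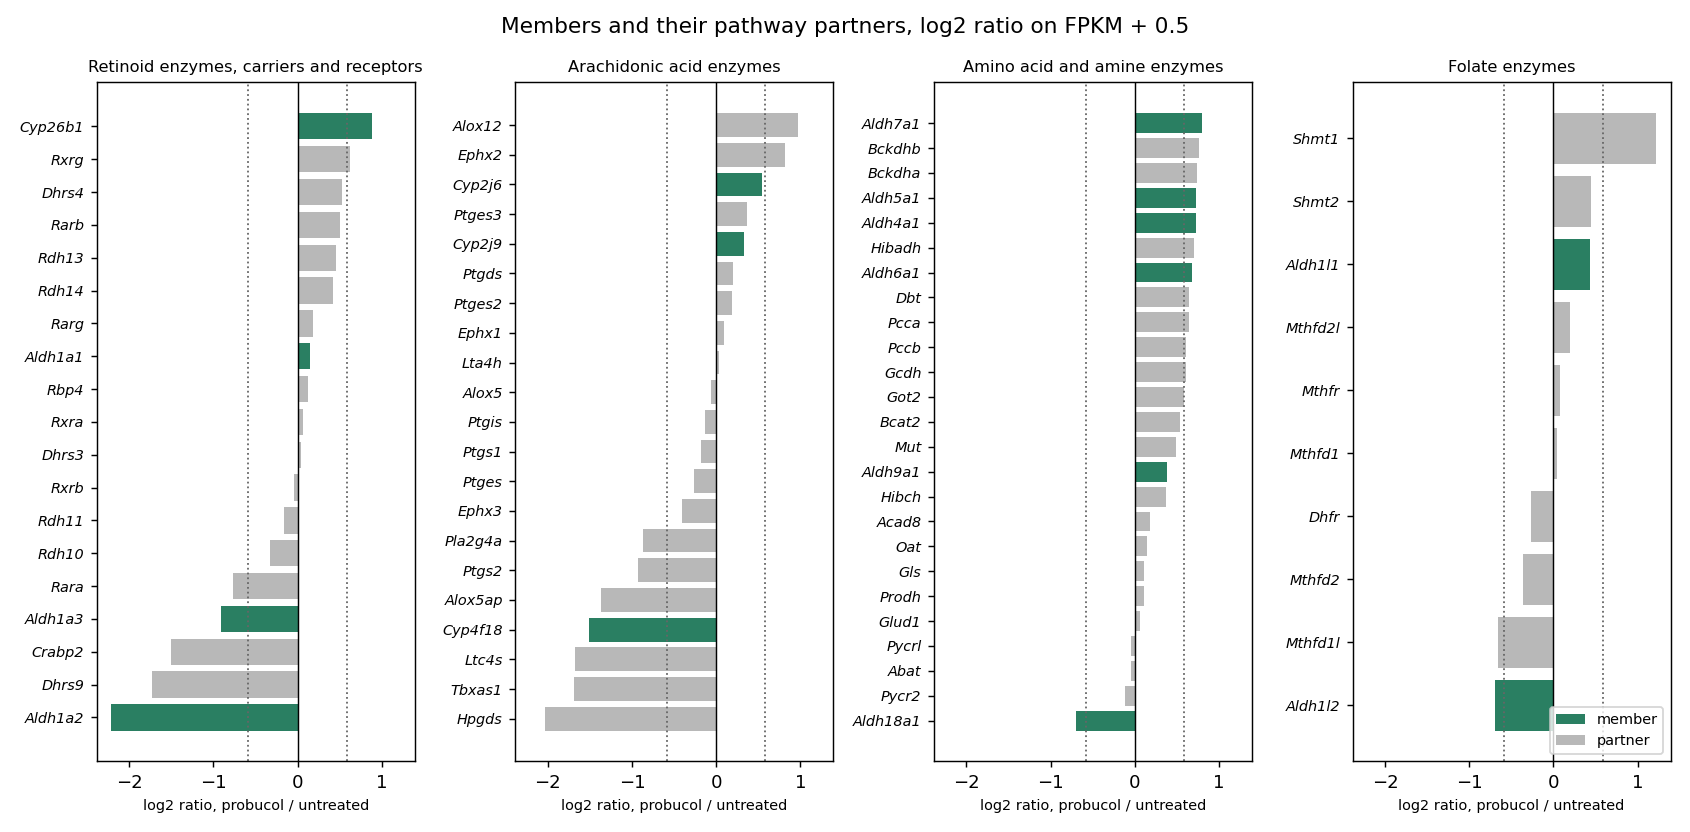
Log2 ratio, probucol over untreated on FPKM + 0.5, of measured members (green) and partners (grey) in 4 pathways, with dotted lines at 1.5-fold. Aldh1a2 is the lowest retinoid enzyme and Cyp26b1 the highest, most amino acid enzymes lie right of 0 with Aldh18a1 left of it, and Cyp4f18 lies among the lowest genes of the arachidonic acid group.

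Dehydrogenases of acetaldehyde and lipid aldehydes differed little. Aldh2, the mitochondrial enzyme, had 107 FPKM with probucol and 95.8 FPKM untreated (log2 0.16). Aldh1b1, its mitochondrial relative, had 9.20 FPKM with probucol and 6.59 FPKM untreated (0.45, interval 1.07 to 1.83). Neither passed the limit. Aldh2, Aldh4a1 and Aldh6a1 together made up 76.8% of the summed aldehyde dehydrogenase FPKM with probucol (272 of 354 FPKM) and 68.2% untreated (197 of 289 FPKM).

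The measured fatty aldehyde enzymes both had ratios below 0 and differed in size. Aldh3a2, which clears long-chain fatty aldehydes, had 12.0 FPKM with probucol and 15.2 FPKM untreated (log2 -0.33). Aldh3b1, which acts on aldehydes of lipid peroxidation, had 2.39 FPKM with probucol and 6.93 FPKM untreated. It was 2.57-fold lower with probucol (-1.36, 27 and 89 fragments, interval 0.211 to 0.526) and lies at chr19:3913491-3929808. The relatives Aldh3b2 and Aldh3b3, with which it shares 8.97% of its 50-base windows, were under the filter, at 0.153 FPKM and 0.0834 FPKM with probucol, against 0 and 0.224 FPKM untreated. Aldh3a1, a corneal enzyme, was just under the filter with 0.431 FPKM with probucol and 0.386 FPKM untreated.

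Both formyltetrahydrofolate dehydrogenases, which end the use of formyl groups by oxidising them, were low. Mitochondrial Aldh1l2 had 1.15 FPKM with probucol and 2.18 FPKM untreated (log2 -0.70, 45 and 95 fragments, interval 0.362 to 0.761), and cytosolic Aldh1l1 had 0.987 FPKM with probucol and 0.605 FPKM untreated (0.43). The FPKM ratio of Aldh1l2 to Aldh1l1 was 1.17 with probucol and 3.61 untreated. Aldh1l2 overlaps D10Wsu102e on the opposite strand over 1056 exon bases, and since the use of strand in counting is not given, reads of the pair cannot be told apart. Opposite-strand overlaps of 1078 exon bases for Aldh6a1 (with Bbof1), 300 bases for Aldh7a1 (with Phax) and 181 bases for Cyp4f18 (with Zfp961) leave those levels uncertain in the same way. So do overlaps of Aldh5a1 with 4932702P03Rik (796 bases, listed at 0 in both libraries) and 9330162012Rik (203 bases). The latter had 1.19 FPKM with probucol and 0.531 FPKM untreated. Further opposite-strand overlaps were those of Cyp2u1 (548 bases), Aldh1l1 (499 bases), Aldh7a1 with a second gene (176 bases) and Aldh2 (130 bases). Aldh1l1 also overlaps a same-strand gene over 105 bases. Aldh16a1 overlaps Pih1d1 on the opposite strand over 149 bases. Pih1d1 had 30.3 FPKM with probucol and 38.8 FPKM untreated. Among 8 measured folate partners, 1 (12.5%) was lower and 1 (12.5%) higher, with a median of 0.06. The shares of all genes were 12.0% and 5.52%. The lower gene was Mthfd1l, a mitochondrial synthetase, at 0.394 FPKM with probucol and 0.912 FPKM untreated (-0.66), on 9 and 23 fragments only. The higher gene was Shmt1, the cytosolic serine hydroxymethyltransferase, at 4.18 FPKM with probucol and 1.51 FPKM untreated (1.22). Aldh16a1, a member without a well-known substrate, had 6.84 FPKM with probucol and 7.44 FPKM untreated (-0.11).

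Among P450 genes the CYP4 family, which hydroxylates fatty acids and eicosanoids, had both lower members. Cyp4f18, which inactivates leukotriene B4 in mouse neutrophils, had 1.4998 FPKM with probucol and 5.20 FPKM untreated. It was 2.85-fold lower with probucol (log2 -1.51, 15 and 58 fragments, interval 0.152 to 0.516), at the 1.68 percentile of all genes. Cyp4v3, the mouse counterpart of a human fatty acid hydroxylase of the eye, had 2.52 FPKM with probucol and 5.12 FPKM untreated. It was 1.86-fold lower with probucol (-0.89, 61 and 138 fragments, interval 0.359 to 0.671), with 7.02% of its windows shared with a same-strand gene model.

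The 5 neutrophil markers gave no common direction beside Cyp4f18, with 2 lower and 2 higher. Retnlg, a neutrophil secreted protein, had 4.11 FPKM with probucol and 2.01 FPKM untreated (log2 0.88), and S100a9, a calcium-binding protein abundant in neutrophils, had 64.9 FPKM with probucol and 42.4 FPKM untreated (0.61). Csf3r, the receptor for a granulocyte growth factor, had 1.37 FPKM with probucol and 3.53 FPKM untreated (-1.11), and the chemokine receptor Cxcr2 had 0.580 FPKM with probucol and 1.37 FPKM untreated (-0.79). The list summed to 145 FPKM with probucol and 102 FPKM untreated. The macrophage markers given above were lower throughout. The part of either list in the Cyp4f18 value was not tested.

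The remaining CYP4 members stayed close to each other or were uncertain. Cyp4b1, the most abundant in both libraries of the P450 genes that the symbol rule took, had 13.1 FPKM with probucol and 11.5 FPKM untreated (log2 0.18, interval 0.899 to 1.44). The pseudogene Cyp4b1-ps2 had 0.839 FPKM with probucol and 0.376 FPKM untreated (0.61), but 34.2% of its windows also occur in Cyp4b1, so its call as higher is uncertain. With the pair summed, the level was 14.0 FPKM with probucol and 11.9 FPKM untreated. Cyp4f13, Cyp4f16 and Cyp4f17, neighbours on chromosome 17 that share sequence, had ratios from -0.47 to -0.21 and summed to 4.62 FPKM with probucol and 5.99 FPKM untreated.

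Partners in the oxidation of arachidonic acid were lower in 5 (31.2%) and higher in 2 (12.5%) of 16 measured genes, with a median log2 ratio of -0.12. The shares of all genes were 12.0% and 5.52%. Hpgds, the prostaglandin D synthase of blood cells, had 1.69 FPKM with probucol and 8.49 FPKM untreated (-2.04). Ltc4s, the leukotriene C4 synthase, had 1.97 FPKM with probucol and 7.40 FPKM untreated (-1.68). Alox5ap, which hands arachidonic acid to the lipoxygenase Alox5, had 22.2 FPKM with probucol and 58.2 FPKM untreated (-1.37). These 3 lower genes belong to leukotriene and prostaglandin synthesis, but not all genes of that synthesis were lower. Alox5 itself had 2.68 FPKM with probucol and 2.81 FPKM untreated (-0.06). Ptgds, the most abundant gene of the list, had 607 FPKM with probucol and 530 FPKM untreated (0.20). Ptgs2 (-0.92) and Pla2g4a (-0.87) were lower too, while Alox12 (0.97) and Ephx2, given below, were the higher genes. Of the P450 enzymes named for their product, which the symbol rule does not take, the thromboxane synthase Tbxas1 had 3.12 FPKM with probucol and 11.1 FPKM untreated (-1.68). The prostacyclin synthase Ptgis had 11.9 FPKM with probucol and 13.1 FPKM untreated (-0.13).

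Apart from the vitamin D enzyme Cyp2r1, all 5 measured members of the CYP2 family had ratios above 0, with a median log2 ratio of 0.33. Of all 12882 measured genes, 6563 had ratios above 0. Only Cyp2e1 passed the limit, and Cyp2u1 turned to -0.065 when FPKM were rescaled to equal totals. Cyp2j6, one of the mouse CYP2J enzymes that act on arachidonic acid, had 4.01 FPKM with probucol and 2.61 FPKM untreated (0.54, 91 and 66 fragments, interval 1.11 to 2.14). Cyp2j9 of the same subfamily had 1.29 FPKM with probucol and 0.926 FPKM untreated (0.33). Cyp2e1, which oxidises ethanol and small solvents, had 1.56 FPKM with probucol and 0.789 FPKM untreated (0.68), on 17 and 10 fragments with an interval of 0.820 to 4.63. At this depth a difference in Cyp2e1 was not detectable. Cyp2d22, of the drug-metabolising CYP2D subfamily, had 4.20 FPKM with probucol and 3.29 FPKM untreated (0.31), and Cyp2u1, a fatty acid hydroxylase, had 2.11 FPKM and 2.02 FPKM (0.05).

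Ephx2, the soluble epoxide hydrolase that removes the epoxides made by CYP2 enzymes, was more abundant than any of them. It had 223 FPKM with probucol and 127 FPKM untreated, 1.76-fold higher with probucol (log2 0.82). The microsomal hydrolase Ephx1 had 31.7 FPKM with probucol and 29.8 FPKM untreated (0.09).

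The 3 measured sterol enzymes had ratios below 0 without passing the limit. Of all 12882 measured genes, 6319 had ratios below 0. Cyp27a1, the mitochondrial sterol hydroxylase of bile acid and oxysterol synthesis, had 8.61 FPKM with probucol and 10.99 FPKM untreated (log2 -0.33, 97 and 138 fragments, interval 0.598 to 1.02). Cyp39a1 and Cyp7b1, which hydroxylate oxysterols, had 3.66 FPKM and 0.687 FPKM with probucol, against 4.48 FPKM and 0.821 FPKM untreated (-0.26 and -0.15). Ch25h, which makes an oxysterol but is no P450, had 0.522 FPKM with probucol and 3.63 FPKM untreated (-2.01, 4 and 32 fragments). It and Hsd11b1, which reactivates glucocorticoid (19.9 FPKM with probucol, 32.8 FPKM untreated, -0.70), were the 2 lower genes of 11 measured sterol and steroid partners, whose median was -0.19. The lower share of that list was 18.2%, against 12.0% of all genes.

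Cyp1b1, a target of the aryl hydrocarbon receptor, had 3.13 FPKM with probucol and 4.38 FPKM untreated (log2 -0.43), whereas its relatives Cyp1a1 and Cyp1a2 were listed at 0 in both. The receptor gene Ahr had 1.41 FPKM with probucol and 1.55 FPKM untreated (-0.10). Its repressor Ahrr, another target, had 2.77 FPKM with probucol and 1.12 FPKM untreated (1.01). It was the 1 higher gene of 6 measured in that list (16.7%, against 5.52% of all genes), whose median was -0.04. Cyp1b1 and Ahrr thus had ratios of opposite sign, that of Cyp1b1 within the limit. Of the same list, Tiparp had 5.75 FPKM with probucol and 7.09 FPKM untreated (-0.28), and Nqo1 had 68.0 FPKM and 67.1 FPKM (0.02). Cyp2r1, a vitamin D hydroxylase, had 0.381 FPKM with probucol and 0.790 FPKM untreated (-0.55), and Cyp20a1, a P450 with no settled substrate, had 8.55 FPKM with probucol and 7.56 FPKM untreated (0.17).

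No redox partner of the P450 enzymes passed the limit in either direction, out of 10 measured with a median log2 ratio of -0.02. At this limit 12.0% of all genes were lower and 5.52% higher, so few of 10 genes would pass it at those shares. Por, the reductase that feeds electrons to microsomal P450 enzymes, had 16.1 FPKM with probucol and 20.6 FPKM untreated (-0.34). Fdxr, which feeds the mitochondrial ones such as Cyp27a1, had 4.96 FPKM with probucol and 3.88 FPKM untreated (0.32). The microsomal carrier Cyb5a had 143 FPKM with probucol and 182 FPKM untreated (-0.34).

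**Figure D3:**
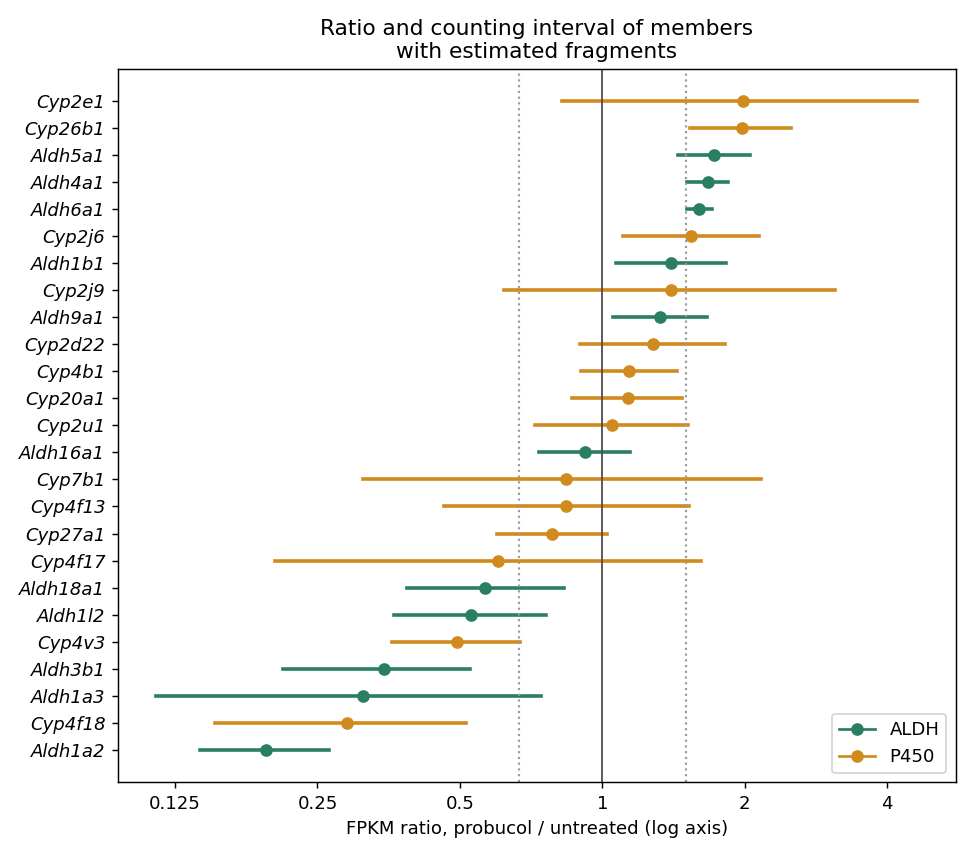
FPKM ratio, probucol over untreated (log axis), of the 25 measured members with estimated fragments; bars are exact binomial 95% intervals for counting error only, dotted lines mark 1.5-fold and the solid line no difference. The limit was applied to FPKM + 0.5, and the bars of 11 of the 12 members past it leave out 1, Cyp2e1 being the exception. Limit and bars rest on the same values, so the bars are no separate check. Cyp2j6 (1.54) and Cyp4f17 (0.601) lie outside the dotted lines on the plotted ratio but were within the limit. The bar of Cyp4f17 (0.203 to 1.62) includes 1.

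An estimate of fragments was possible for 25 measured members. Of the 14 members past the limit 12 had an estimate, and in 11 the interval left out a ratio of 1. Limit and interval rest on the same values, so the interval is no separate check of these calls. Of 13 members within the limit that had an estimate, 10 had intervals that included 1. The other 3, Aldh1b1, Aldh9a1 and Cyp2j6, were higher with probucol beyond counting error.

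**Figure D4:**
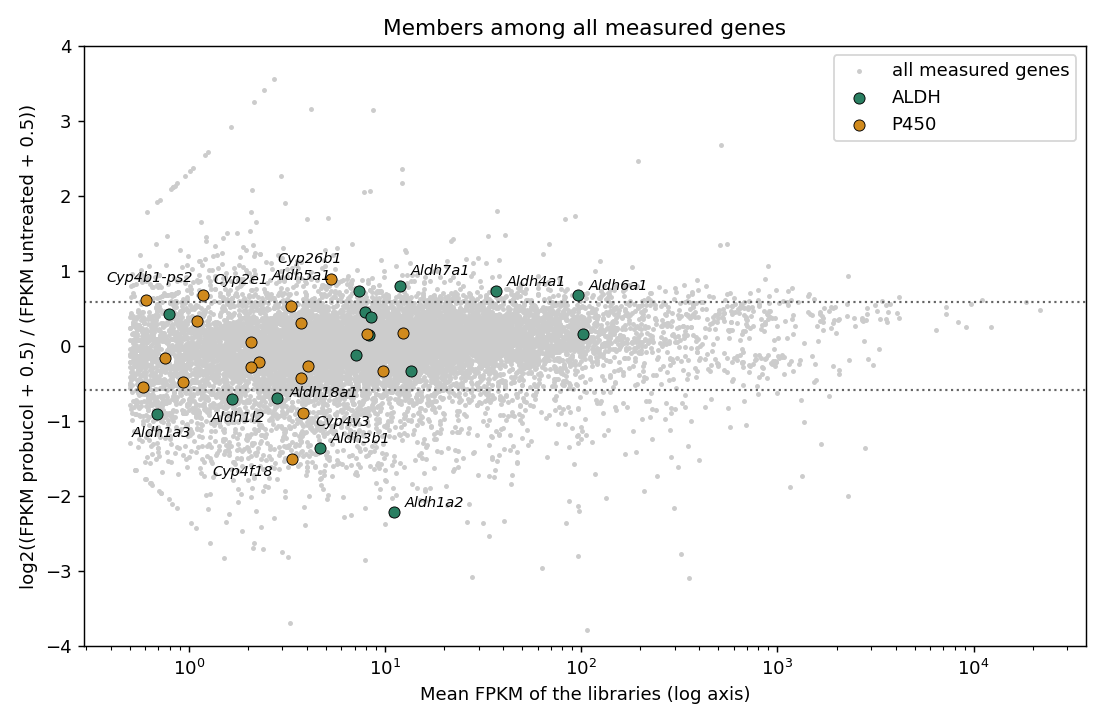
Log2 ratio, probucol over untreated on FPKM + 0.5, against mean FPKM (log axis) of all 12882 measured genes (grey), with aldehyde dehydrogenase genes in green, P450 genes in orange and dotted lines at 1.5-fold; 30 genes beyond a log2 ratio of 4 in either direction lie outside the axis. Members past the limit are named, with Aldh1a2 at -2.21 as the lowest and Cyp26b1 at 0.89 as the highest.

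Levels set the families apart more than ratios did. Of the 15 measured members with a mean of at least 5 FPKM, 11 were aldehyde dehydrogenase genes and 4 were P450 genes. Summed over all members, aldehyde dehydrogenase genes had 354 FPKM with probucol and 289 FPKM untreated, and P450 genes had 70.1 FPKM with probucol and 72.1 FPKM untreated.

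The other 90 members were under the filter, and 66 of them, 65 P450 genes and Aldh1a7, were listed at 0 in both libraries. Of the 24 with some signal, 11 were above 0 in both, 7 with probucol only and 6 untreated only, and 0 exceeded 0.5 FPKM in a library. Families best known for hepatic drug metabolism made up most of the members listed at 0. A value listed at 0 does not establish that a gene is not expressed: 4 of the 65 are pseudogenes or antisense, and Akr1b3, a broadly expressed aldose reductase, was also listed at 0 in both. Of 50 CYP2 genes besides Cyp2r1, 5 were measured and 37 were listed at 0 in both, and of 9 CYP3 genes 0 were measured and 7 were listed at 0. Of 23 CYP4 genes 7 were measured and 12 were listed at 0. None of the 6 steroid hormone synthases, such as Cyp11a1 and Cyp19a1, was measured, and the bile acid enzyme Cyp7a1 and the vitamin D enzyme Cyp24a1 were listed at 0 in both. Hepatocyte markers summed to 5.35 FPKM with probucol and 7.38 FPKM untreated, and all 5 lung markers were listed at 0.

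The filter fell in a gap between members. Just inside were Cyp2r1 with a mean of 0.585 FPKM and Cyp4b1-ps2 with 0.608 FPKM, and just outside were Aldh3a1 with 0.408 FPKM and Cyp8b1 with 0.244 FPKM.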

How the data were processed

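The authors deposited 1 FPKM value per gene symbol and library, for 24346 symbols. Per the submitters' processing notes, TopHat2 2.1.1, Bowtie2, Cuffdiff 2.2.1 and mm10 were used; the sources used here do not give their order, the annotation or the use of strand. Per the labels' protocols, libraries were made with a stranded mRNA kit. FPKM falls for all genes where a few transcripts take more of a library, and values were not rescaled.

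Groups were taken from the treatment label. Ratios used a pseudocount of 0.5 FPKM and a mean filter of 0.5 FPKM, with a limit of 1.5-fold. Members, partner lists and marker lists were chosen with earlier results of these data known. Every measured member could be named, with up to 4 of each partner list and 2 of each marker list, plus partners that act directly on a member. All epicardial markers, 4 neutrophil markers and further genes of the arachidonic acid, retinoid and aryl hydrocarbon lists were named after their values were seen. A partner gene of the retinoid list is not reported here.

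Fragments were estimated from FPKM steps for genes with 1 RefSeq transcript of at least 500 bases. From the length of that transcript (GENCODE M21, GRCm38, the build of mm10) 210 bases were subtracted. Other GENCODE transcripts of these genes were not considered. Genes whose RefSeq transcripts differ in length by up to 5% were added after the data were seen. Of low values, 68.1% of 1202 with probucol and 69.2% of 1146 untreated came within 0.05 of a whole number, so estimates are approximate. Intervals are Clopper-Pearson. Python 3.11.15, numpy 2.4.6, scipy 1.17.1 and matplotlib 3.10.9 were used, and the procedure was tested on simulated data.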

Additional observations from a re-analysis of the deposited data

How the results depend on the processing

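No paired analysis was possible because each group has 1 library and the labels give no replicate number, and leaving out a library was not possible either. With a pseudocount of 0.1, 4 P450 genes were at least 1.5-fold lower, and Cyp2j6 (log2 0.60), Cyp2r1 (-0.89), Cyp4f17 (-0.66) and Aldh1l1 (0.62) passed the limit. With a pseudocount of 1, only 1 P450 gene was at least 1.5-fold higher, and Cyp2e1 (0.52), Cyp4b1-ps2 (0.42) and Aldh1l2 (-0.56) no longer passed. Rescaling to equal FPKM totals shifted the median of all genes to -0.13 and put 15.8% of them lower and 2.97% higher; 1 P450 gene was then higher, the aldehyde dehydrogenase median was 0.015, Cyp2e1 (0.58), Cyp4b1-ps2 (0.54) and Aldh6a1 (0.53) no longer passed, and Cyp2r1 (-0.63) did. The P450 median was 0.052 with a mean filter of 1 FPKM and 0.15 with one of 0.1 FPKM, so its sign rests on the filter. At a 2-fold limit, 5.14% of all genes were lower and 1.07% higher, against 1 P450 and 2 aldehyde dehydrogenase genes lower, and 0 P450 and 0 aldehyde dehydrogenase genes higher. Without Cyp4b1-ps2, an alternative chosen after seeing the data, 2 P450 genes were higher. No member past the limit reversed its direction under these settings; of the others, Cyp2u1 turned to -0.065 under the rescaling. The limits are the single library per group, the few fragments of low members, and transcripts or windows shared between genes.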
